A study of Mus musculus with 12 samples.

Results

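The Trav and Traj genes are the variable and joining segments of the T cell receptor alpha chain. They were taken as every row of the gene expression table whose gene name starts with Trav or Traj, which gave 168 of the 41128 genes, namely 109 Trav and 59 Traj. Their levels were read in 12 RNA sequencing libraries, 3 for each of 4 groups of spleen cells, all from C57BL/6J mice of 6 to 8 weeks. Naive CD4+ T cells of females and of males were depleted of CD8a, CD25 and TCRγ/δ positive cells among others, and then sorted as CD62Lhi, CD44lo and CD25-. Resting B cells of females and of males lacked CD43. No group carried an added gene, a deletion or a treatment. The T cell libraries are numbered 4 to 6 and the B cell libraries 1 to 3 in each sex. Replicates are called pooled in the series text, so each SD below is one between pools. The methods of the study give pools of several mice for the bisulfite libraries of these cell types and no pool size for RNA.

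In a developing T cell the recombinase cuts the DNA beside a variable and a joining segment and joins them, so that the V segment lies next to a J segment upstream of the constant gene Trac. Transcription then starts at the promoter of the joined V segment, and splicing connects the short J stretch to Trac. The V segment encodes most of the variable domain, the J segment encodes its last strand, and cells that have not rearranged the locus, B cells included, make no such transcript. In mice a large stretch of Trav genes has been duplicated, and the copies carry a d or an n after the family number in their names. Names with dv mark segments that can also be joined into delta chains.

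All 168 genes lie on the plus strand of chromosome 14 in the GRCm38 build (GENCODE M21, the build mm10 that the labels name). The Trav genes reach from 52427928 to 53876752, which is 1791.6 to 343.8 kb upstream of the start of Trac, and the Traj genes from 54155005 to 54218842, which is 65.4 to 1.7 kb upstream of it. Trav1 is the farthest V segment from Trac and Trav21-dv12 the nearest, and Traj61 and Traj1 are the ends of the J cluster. The longest annotated transcript of a Trav gene is 270 to 595 bases long (median 378), and that of a Traj gene 29 to 72 bases (median 61). The annotation calls 7 Trav and 9 Traj genes pseudogenes.

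Sequences are shown for the segments on which the results turn, as the sense strand of the GENCODE M21 transcripts. The first set shows how alike V segments can be, since reads are hard to assign between such copies. It gives the last 120 aligned bases of Trav14d-1, the V segment with the highest level, and of its relative Trav14-1, with the bases that differ between them in capitals. Trav14n-1 has the same sequence as Trav14d-1 over all 415 bases.
Trav14d-1: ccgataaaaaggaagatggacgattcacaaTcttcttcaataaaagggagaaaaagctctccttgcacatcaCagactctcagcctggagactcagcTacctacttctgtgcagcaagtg
Trav14-1: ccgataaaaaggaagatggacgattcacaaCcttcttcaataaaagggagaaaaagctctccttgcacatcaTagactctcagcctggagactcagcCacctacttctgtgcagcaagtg
The next pair differs at 1 of 347 aligned bases, again in capitals.
Trav6-3: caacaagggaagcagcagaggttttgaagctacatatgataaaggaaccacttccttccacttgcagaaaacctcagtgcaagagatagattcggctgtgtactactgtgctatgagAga
Trav6d-3: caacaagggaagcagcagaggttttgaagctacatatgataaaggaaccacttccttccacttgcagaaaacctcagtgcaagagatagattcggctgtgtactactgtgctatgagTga
Trav11 and Trav11d, the V segments of the invariant receptor of natural killer T cells, are the same over 342 aligned bases and end with the same letters.
Trav11 and Trav11d: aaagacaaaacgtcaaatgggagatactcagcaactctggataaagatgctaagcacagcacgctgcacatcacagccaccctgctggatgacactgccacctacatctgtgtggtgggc

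The second set shows how short the J segments are. Capitals mark the FGXG motif of J segments, which was searched on the sense strand in all 3 frames as the codons of phenylalanine or tryptophan, glycine, any residue and glycine. It was present in 44 of the 59 Traj genes (74.6%) and in 43 of the 50 that are not pseudogenes (86.0%), against 2.18% of the first 60 bases of 58797 protein-coding transcripts. Traj18 and Traj33 are joined in the invariant receptors of natural killer T cells and of mucosal-associated invariant T cells. Traj2 had the highest mean level of the J segments in T cells, and Traj55, a pseudogene in which the motif was not found, the highest in B cells.
Traj18: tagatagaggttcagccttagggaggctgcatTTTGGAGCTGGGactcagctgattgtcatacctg
Traj33: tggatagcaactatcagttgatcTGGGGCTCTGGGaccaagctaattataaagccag
Traj2: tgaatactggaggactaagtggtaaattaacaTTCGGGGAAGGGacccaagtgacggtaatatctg
Traj55: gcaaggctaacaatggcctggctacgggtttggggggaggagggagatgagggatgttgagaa

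Levels are given in adjusted TPM. TPM is a length-corrected share of transcripts, and how it was adjusted is not stated. The totals of the 12 libraries ran from 561020 to 1453940. The table holds a point estimate with a lower and an upper bound, no value is 0, and the sequencing depth is unknown. A gene was tested if it reached an adjusted TPM of 1 in at least 3 libraries, which 12520 genes did. The cell types carried their markers. Cd3e, a chain of the T cell receptor complex, was at 62.3 to 76.6 in T cells and at 0.0156 to 0.0790 in B cells, and 5 B cell markers summed to 0.90 to 5.34 in T cells against 2610 to 2972 in B cells.

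The summed Trav level separated T from B cells in each library. In female T cells it was 396, 384 and 303 in libraries 4, 5 and 6, and in male T cells 401, 400 and 297. In the B cell libraries it was between 2.28 and 2.98. The cell types did not overlap, and both T cell libraries numbered 6 were below the other 4 in T cells. On the log2 scale the difference between T and B cells was 7.12 (exact two-sided permutation test, n = 6 and 6, p = 0.00216, adjusted p = 0.00505 over 7 tests), and 0.00216 is the smallest p that this test can give. In the B cell libraries the sum adds up 109 values of which the highest was 0.221, with a median ratio of upper to lower bound of 173 against 2.37 in T cells, so the size of the difference rests on the low values of B cells. It was 11.4 from the lower bounds and 5.46 from the upper bounds. In bulk RNA, fewer cells of a type and less RNA per cell cannot be told apart.

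Trac, the constant gene that every rearranged alpha transcript carries, moved with the summed V level. It was at 330, 350 and 242 in female T cells 4, 5 and 6 and at 342, 354 and 286 in male T cells, against 0.00967 to 0.138 in B cells. The summed Trav level was 1.04 to 1.25 times the level of Trac in the 6 T cell libraries. In the libraries numbered 6 the mean of the summed Trav level was 0.759 times, and that of Trac 0.768 times, the mean of the other 4 T cell libraries.

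Other genes also set the T cell libraries numbered 6 apart. Of the 8 T cell markers, 6 had a lower mean there than in the other 4, with ratios of 0.792 for Cd3g, 0.836 for Cd247, 0.839 for Lck, 0.868 for Cd3d, 0.884 for Thy1 and 0.918 for Cd4, and 2 a higher mean, with 1.04 for Cd3e and 1.16 for Cd28. Of the list of regulatory T cell markers, Il2ra, which encodes CD25, was at 5.0 and 4.11 in the libraries numbered 6 against 0.158 to 0.340 in the others. Ikzf2 was at 13.4 and 11.3 against 1.07 to 2.07, and Foxp3, the defining factor of regulatory T cells, at 2.57 and 1.82 against 0.440 to 0.735. The part of these genes in the lower Trav level was not tested. Of the 78 Trav genes that passed the filter, 34 (43.6%) were lower in both libraries numbered 6 than in each of the other 4, and 0 were higher, against 18.6% lower and 17.0% higher of all genes that passed. Without these 2 libraries, a choice made after seeing the data, the summed Trav level of T and B cells differed by 7.26 on the log2 scale, the share of the Trav genes nearest to Trac given below by 13.4 percentage points, and the numbers of Trav genes called below were the same, 78 between cell types and 0 between the sexes in T cells (limma, 21 at an unadjusted p under 0.05).

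**Figure D1:**
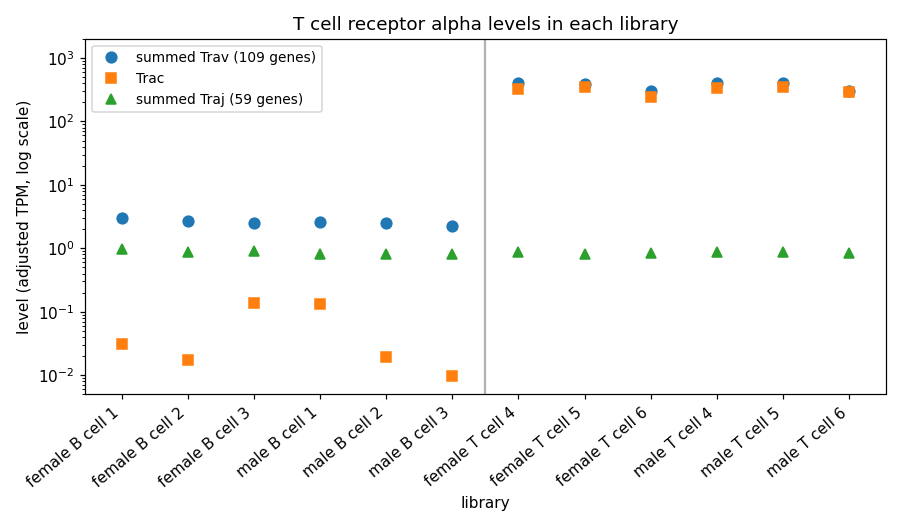
Summed level of the 109 Trav genes (circles), level of Trac (squares) and summed level of the 59 Traj genes (triangles) in each of the 12 libraries, in adjusted TPM on a log axis. Trav and Trac lie close together at 242 to 401 in the T cell libraries and far apart below 3 in B cells, while the summed Traj level stays between 0.80 and 0.976 in every library.

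Of the 109 Trav genes, 103 were higher in every T cell library than in every B cell library, and 0 the other way round, against 15.3% and 15.5% of the genes of the whole table. With the deposited bounds, 71 Trav genes had all 6 lower bounds in T cells above all 6 upper bounds in B cells, against 5.89% of all genes. The 6 that overlapped were Trav4d-4, Trav5d-3, Trav5n-3, Trav6d-7, Trav11 and Trav15n-2, named here after their values were seen. Each of them has a copy of identical aligned sequence.

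The filter left 78 Trav genes. All 78 passed it through the T cell libraries alone, since no Trav gene was above 0.221 in a B cell library, so those that passed had to be higher in T cells. All 78 were called higher in T cells (limma, Benjamini-Hochberg adjusted p of at most 4.10e-05), where 41.6% of the genes tested were called in that direction and 31.4% in the other. Their difference between T and B cells on the scale of log2(adjusted TPM + 1) ran from 0.93 to 4.83, with a median of 1.99. The pseudocount of 1 is far above the values in B cells, so these differences mainly record the level in T cells. Just inside the filter were Trav14d-2 and Trav15-2-dv6-2 at means of 0.983 and 1.04 in T cells, and just outside were Trav13n-3, Trav3-4 and Trav3-1 at 0.793, 0.835 and 0.879.

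**Figure D2:**
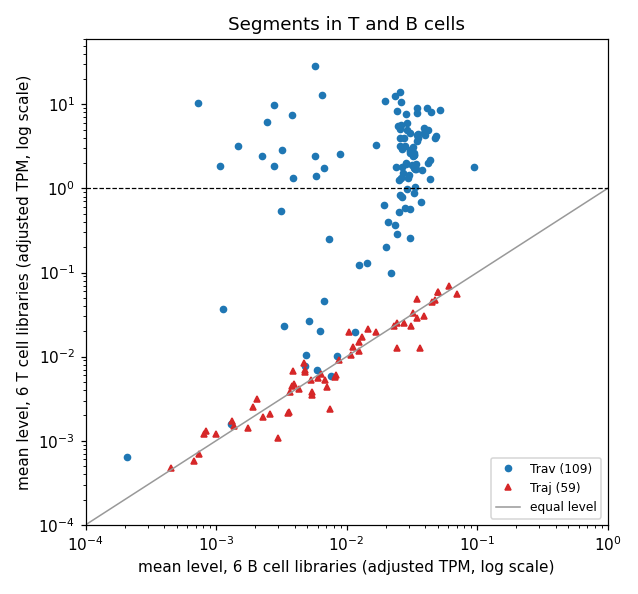
Mean level over 6 B cell libraries (x axis) and over 6 T cell libraries (y axis) of each Trav gene (circles) and Traj gene (triangles), in adjusted TPM on log axes, with a line of equal level and a dashed line at the filter of 1 in T cells. Most Trav genes lie far above the line of equal level, and the Traj genes lie along it and below 0.1 on both axes.

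Among the V segments of T cells, Trav14d-1 (ENSMUSG00000095854.3, chromosome 14, 52855614 to 52856166) stood first. It was at 32.1, 31.6 and 19.9 in female T cells 4, 5 and 6 and at 29.7, 35.0 and 20.7 in male T cells, against at most 0.00993 in B cells. It was the highest Trav gene in all 6 T cell libraries, and its lowest value was above the highest value of the next gene. It held 6.57% to 8.76% of the summed Trav level of a library, with the lowest shares in the libraries numbered 6. Its difference from B cells was 4.83 ± 0.13 (SE) on the scale of log2(adjusted TPM + 1) (limma, adjusted p = 2.03e-12). Trav14d-1 too passed the filter through T cells alone, so this test had to favour T cells and mainly restates its level there.

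The next segments could not be put in a firm order. Trav7-2 had a mean of 13.9 ± 1.81 (SD, n = 6), Trav14-2 of 12.8 ± 0.977, Trav14-1 of 12.7 ± 2.72, Trav6d-6 of 11 ± 1.44, Trav6-7-dv9 of 10.6 ± 2.46 and Trav14-3 of 10.4 ± 1.38. They were followed by Trav6-5 at 9.89 ± 1.53, Trav7-4 at 9.10 ± 2.15 and Trav6n-7 at 9.04 ± 1.70. From Trav7-2 down to Trav6n-7, the ranges of neighbours in this order overlapped. All 10 belong to the families Trav6, Trav7 and Trav14. In all, 7 Trav genes had a mean of at least 10 in T cells, 70 of 1 to 10, 18 of 0.1 to 1 and 14 under 0.1.

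Usage, the share of a segment in the summed Trav level of its library, was broad. The 10 highest segments of a T cell library held 34.3% to 36.1% of its sum. Averaged over the 6 libraries, 18 segments held 50% of the sum and 60 segments 90%. The effective number, which is the number of equally used segments that would give the same sum of squared shares, was 41.6 to 46.2 in the T cell libraries. The order of the 109 segments was alike in the T cell libraries, with Spearman's rho between 0.958 and 0.973 for pairs of libraries. These rho are across segments, which share their library and are not independent.

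**Figure D3:**
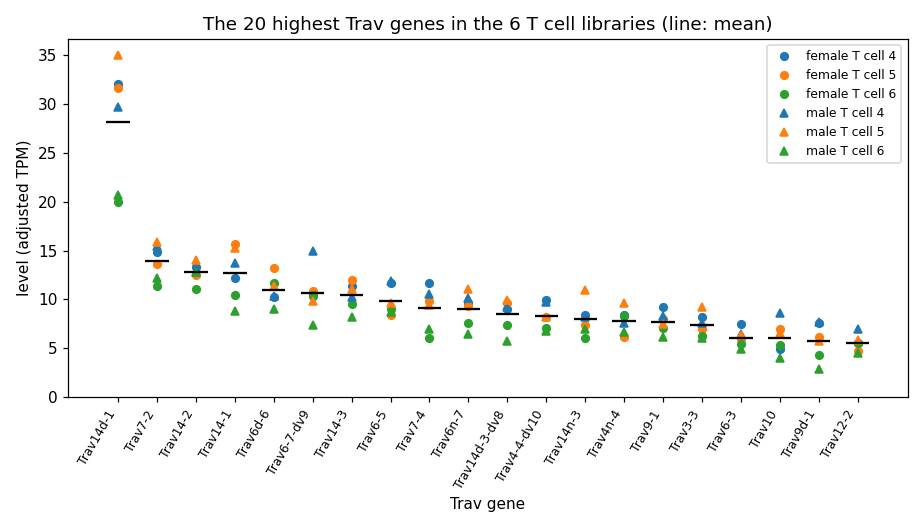
Level in adjusted TPM of the 20 Trav genes with the highest means in T cells, in each of the 6 T cell libraries (circles for females, triangles for males, a colour for each library number, a black line for the mean). Trav14d-1 lies at 19.9 to 35.0, above every other gene, and its lowest values come from the libraries numbered 6.

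By family, Trav14 held the largest share of the summed level in T cells. Its 9 genes summed to 68.8 to 104 and took 23.8% ± 1.33 (SD, n = 6) of the sum. The 15 Trav6 genes took 16.8% ± 0.849, the 9 Trav7 genes 11.6% ± 0.539, the 11 Trav9 genes 8.12% ± 0.690 and the 8 Trav4 genes 6.39% ± 0.563. Trav12 with 9 genes and Trav13 with 11 took 6.10% ± 0.419 and 6.00% ± 0.284. The ranges of Trav14, Trav6 and Trav7 over the 6 libraries did not overlap, at 22.6% to 26.1%, 15.8% to 18.2% and 10.6% to 12.2%. Those of Trav4, Trav12 and Trav13 did. In families of 1 gene, Trav18 was at 0.0263 to 0.0552 in T cells while Trav17 was at 2.29 to 4.54, Trav19 at 2.07 to 3.86 and Trav21-dv12 at 3.31 to 4.78.

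Identical copies limit what the level of a single V segment can say. Over transcripts that align for at least 200 bases, 40 Trav genes form 20 pairs without a mismatch, of which 15 pairs have transcripts of equal length. Within such a pair the higher copy was 1.28 to 1173 times as high as the lower in T cells, with a median of 34.6, and more than 10 times as high in 15 pairs. Of the 20 pairs, 18 had a copy that did not pass the filter. Trav4n-4 was at 7.78 and Trav4d-4 at 0.0103, Trav5n-4 at 3.63 and Trav5d-4 at 0.0201, and Trav6n-7 at 9.04 and Trav6d-7 at 0.00771. With reads that match both copies equally, the split between them cannot be read from these levels, and it was kept apart from the summed level of each pair. Trav6-3 and Trav6d-3, whose letters above differ at 1 base, were at 6.11 and 0.000640.

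Summed over identical copies, the 109 genes became 89 rows, and Trav14d-1 with Trav14n-1 stayed first at 28.7 ± 6.36 (SD, n = 6). Trav6d-6 with Trav6-6 was at 11.7 ± 1.40. All 76 rows that passed the filter were called higher in T cells (limma, an alternative chosen after seeing the data), where 5205 of 12518 rows tested were. No summed row was above 0.221 in a B cell library, so these 76 too had to be higher in T cells. Some copies that are not identical also differed in level. Trav7-4 and Trav7d-4 differ at 2 of 451 bases and were at 9.10 ± 2.15 and 3.18 ± 0.903, and Trav10 and Trav10d differ at 3 of 406 bases and were at 6.05 ± 1.65 and 1.78 ± 0.534. Their ranges over the 6 libraries did not overlap.

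**Figure D4:**
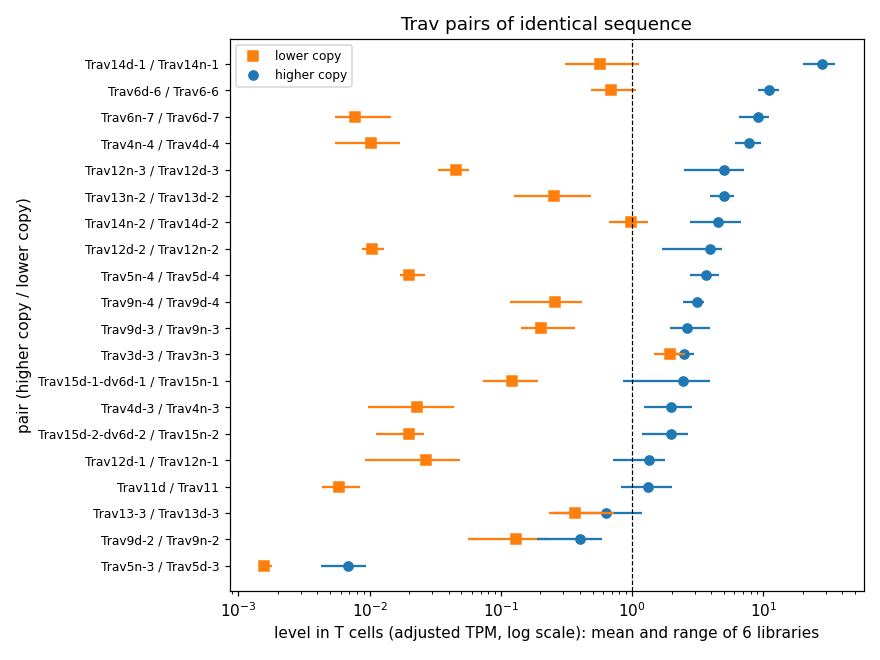
Level in T cells, in adjusted TPM on a log axis, of the 20 pairs of Trav genes with identical aligned sequence. Points are means and lines ranges over 6 libraries, circles mark the higher and squares the lower copy, and the dashed line marks the filter of 1. In 15 pairs the copies lie more than 10 times apart although their aligned letters do not differ.

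Members of all 3 kinds of name, d copies, n copies and plain names, passed the filter. The 35 d copies held 26.8% ± 1.55 (SD, n = 6) of the summed Trav level in T cells, the 28 n copies 18.9% ± 1.29 and the 46 Trav genes with a plain name 54.3% ± 1.23. The median over genes was 1.73 for d copies, 1.77 for n copies and 3.18 for plain names, and 23, 17 and 38 of them passed the filter. The split of identical pairs bears mostly on the first 2 groups. Trav6-6, Trav11 and Trav13-3 each have an identical d copy, so the split also bears on the plain names. The 10 segments with dv names, held 11.9% ± 0.953. All 10 passed the filter, and their median was 2.62.

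The 7 annotated Trav pseudogenes held 0.936% ± 0.0796 of the summed level. Trav8-2 alone passed the filter, at 1.53 to 2.08 in T cells. Trav13-3, which has a copy of identical aligned sequence named Trav13d-3, was at 0.252 to 1.19. Trav9n-1 had a mean of 0.537 and Trav20 one of 0.285. The other 3 were under 0.1.

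Along the locus, the part of the V cluster nearer to Trac held the larger share of the level in T cells. The 54 Trav genes nearest to Trac held 66.3%, 64.9% and 69.0% of the summed Trav level in female T cells 4, 5 and 6 and 67.8%, 66.6% and 69.2% in male T cells. In B cells the same genes held 52.1% to 56.0% of a sum of values near the floor. The difference was 14.3 percentage points (exact two-sided permutation test, n = 6 and 6, p = 0.00216, adjusted p = 0.00505). No Trav gene was above 0.221 in a B cell library, so the B cell share is one of floor values. This p therefore does not compare V usage between the cell types. Some identical pairs, such as Trav6d-6 with Trav6-6 and Trav11d with Trav11, have their copies on opposite sides of this divide. The shares and their difference therefore include a split between copies that cannot be read from these levels. How much of the difference rests on that split was not tested. The 54 nearest genes had a median of 3.80 in T cells and 46 of them passed the filter. The 55 farther ones had a median of 1.34 with 32 passed. The 40 Trav genes with an identical copy had a median of 0.662 and 19 passed. The 69 without one had a median of 2.67 and 59 passed. How much of the contrast in medians and counts along the locus rests on identical copies was not tested. The first 6 genes, from Trav1 to Trav6-2, summed to 7.59 in T cells, the 63 d and n copies that follow to 167, and the 40 genes after them to 189. Across the 109 genes, Spearman's rho between the level in T cells and the distance to Trac was -0.32, a description across genes that include identical copies.

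**Figure D5:**
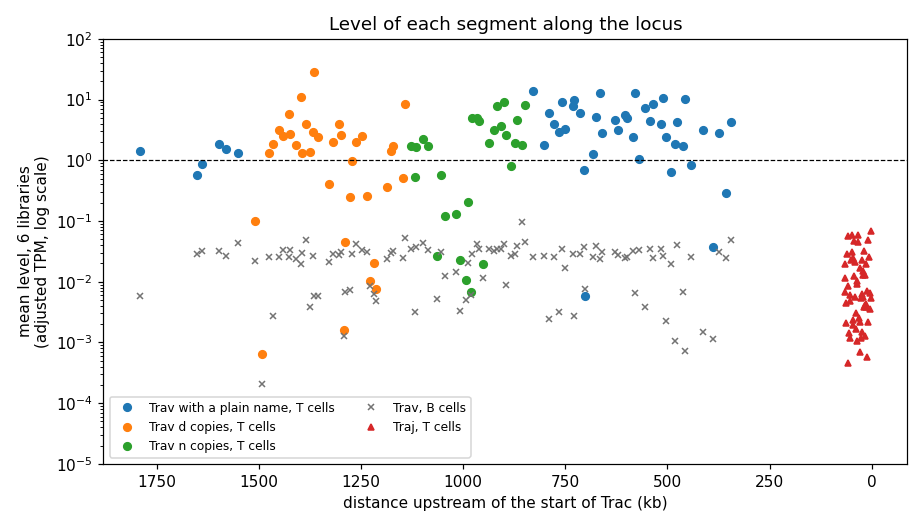
Mean level of each segment in adjusted TPM (log axis) against its distance upstream of the start of Trac in kb, for Trav genes in T cells (circles, coloured by d copy, n copy or plain name), Trav genes in B cells (crosses) and Traj genes in T cells (triangles). The dashed line marks the filter of 1. The Trav genes with plain names near Trac lie mostly above 1 in T cells, the d and n copies range from under 0.01 to 28.2, and the Traj genes and the Trav genes in B cells lie below 0.1.

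The most variable V segments of T cells were low ones. Among Trav genes with a mean of at least 1 in T cells, the coefficient of variation over the 6 libraries was 7.65% to 50.8%, with a median of 22.1%. Trav15-2-dv6-2 was the most variable, at 1.60, 1.35 and 0.935 in female T cells 4, 5 and 6 and at 0.616, 1.46 and 0.260 in male T cells. Trav15d-1-dv6d-1 followed at 3.07, 3.10 and 1.53 in females and 3.90, 2.12 and 0.854 in males. Trav16d-dv11, Trav4d-3 and Trav11d had coefficients of 38.9%, 35.9% and 35.8%. Trav14-2 was the least variable, at 11.1 to 14.1.

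J usage could not be read from this table. All 59 Traj genes were under the filter, with a highest value of 0.111 in a T cell and 0.101 in a B cell library. The summed Traj level was 0.801 to 0.875 in the T cell libraries and 0.80 to 0.976 in the B cell libraries. The difference of T from B cells was -0.03 on the log2 scale (exact two-sided permutation test, n = 6 and 6, p = 0.619, adjusted p = 0.619), although the mRNA of Trac, of which a J stretch is part, was at 317 ± 44.4 (SD, n = 6) in T cells. It was -0.01 from the upper bounds, -0.41 when every library was rescaled to 1000000 (p = 0.00866), -0.27 from the lower bounds (p = 0.0173) and -0.14 with median-ratio scaling (p = 0.0152), all by the same exact permutation test. The summed Traj level was 0.238% ± 0.0357 (SD, n = 6) of the summed Trav level in T cells. With Traj flat, the log2 ratio of Traj to Trav, lower in T than in B cells by 7.15, restates the difference in Trav and is no separate result.

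Short features were under the filter whatever their class. Of 721 other genes whose longest transcript has at most 72 bases, 0 passed, with a highest value of 0.226. These include the J segments of the other antigen receptor loci that have a known length. Of all 29 J segments of those loci 0 passed, with a highest value of 0.160. Among them, Trgj1, Trgj2 and Trgj3 have no known length. For comparison, 15.3% of the genes of 200 to 600 bases passed, and 30.8% of all genes with a known length. The part of feature length in the low Traj levels was not tested.

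The values of single Traj genes follow the same picture. Traj2 was at 0.0440, 0.0362 and 0.0432 in female T cells 4, 5 and 6, at 0.0933, 0.111 and 0.0858 in male T cells, and at 0.0525 to 0.0733 in B cells. Traj46 had a mean of 0.0595 in T and 0.050 in B cells, Traj31 of 0.0590 and 0.0501, and Traj55, a pseudogene, of 0.0557 and 0.0701. Traj7 and Traj41 were at 0.0478 and 0.0470 in T cells. Across the 59 genes, Spearman's rho between the means of T and B cells was 0.951, against 0.312 across the 109 Trav genes.

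The bounds of the Traj values were wide, while the values of a group lay close together. The upper bound was a median of 964 times the lower in T cells and 877 times in B cells, yet the median coefficient of variation within a group of 3 was 7.72% to 8.55%. Of the 59 Traj genes, 3 were higher in every T than in every B cell library and 4 lower. Over all genes of the table, 15.3% were higher and 15.5% lower in this way. Females and males did not overlap for 47 Traj genes in T cells and for 49 in B cells, against 43.3% and 42.1% of all genes of the table. Without the filter, 38 Traj genes were called between B and T cells (limma, adjusted p under 0.05), 19 in each direction, where 59.8% of all genes were called, and their differences were between -0.02 and 0.03 on the scale of log2(adjusted TPM + 1). Between the sexes, 37 Traj genes in T cells and 41 in B cells were called without the filter (limma), where 25.8% and 26.7% of all genes were called. Such calls compare values whose own bounds span orders of magnitude. The quantifier is not named, and whether these values record any reads of J segments or only its starting values is not known, so every Traj value and test here carries that limit.

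The 29 Traj genes nearest to Trac held 38.7% to 41.9% of the summed Traj level in T cells and 36.0% to 41.8% in B cells. The difference was 1.23 percentage points (exact two-sided permutation test, n = 6 and 6, p = 0.323, adjusted p = 0.452). With the 19 nearest genes it was 2.93 points (exact permutation test, p = 0.0455), and from the lower bounds 5.42 points (p = 0.0238, exact permutation test). Spearman's rho between the level in T cells and the distance to Trac was 0.02 across the 59 genes.

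The V segments of the invariant receptors were low, and their J segments were under 0.1 in T cells, as were all 59 Traj genes. Trav11d was at 1.20, 2.02 and 0.868 in female T cells 4, 5 and 6 and at 1.32, 1.74 and 0.826 in male T cells, against 0.0240 to 0.0364 in B cells. Its identical copy Trav11 was at 0.00436 to 0.00844 in T cells. Together they took 0.361% of the summed Trav level, and the pair stood in place 72 of the 89 rows. Traj18 had a mean of 0.00384 in T cells and 0.00370 in B cells. Zbtb16 and Klrb1c, markers of natural killer T cells, had means of 0.0164 each in T cells, against 0.0146 and 0.170 in B cells. Trav1 was at 1.68, 1.98 and 1.36 in female T cells and at 1.18, 1.14 and 1.05 in male T cells, and Traj33 had means of 0.00921 in T and 0.00873 in B cells.

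The 3 highest Trav genes of B cells were Trav13n-4, Trav14d-3-dv8 and Trav21-dv12, with means of 0.0953, 0.0517 and 0.0485. Trav13n-4 was at 0.136, 0.114 and 0.221 in female B cells 1, 2 and 3 and at 0.0374, 0.0333 and 0.0312 in male B cells, so that the sexes did not overlap, and it was at 0.723 to 2.32 in T cells. At these levels the pseudocount of 1 squeezes a difference between the sexes towards 0. The sum of the T cell markers in B cells was 10.2 to 14.4, of which Lck made up 8.94 to 13.4, while Cd4 was at most 0.00594 and Cd3e at most 0.0790. Of the CD8 T cell list, Cd8b1 was at 5.25 to 8.11 and Cd8a at 0.0768 to 0.256 in T cells, against at most 0.0804 and 0.591 to 2.31 in B cells. Of the 3 killer cell genes, Klrd1 was at 15.9 to 24.0 in T cells, where Nkg7 was at most 0.561 and Ncr1, a defining marker, at most 0.0137. Of 5 gamma delta genes, Sox13, Tcrg-C1, Tcrg-C2 and Tcrg-C4 summed to 0.178 to 1.00 in T cells and 0.0545 to 0.126 in B cells. Trdc, the delta constant gene, could not be read. The 2 monocyte genes summed to 0.987 to 3.59 in T cells and 8.55 to 12.6 in B cells.

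Of the 78 Trav genes tested, 0 were called between females and males in T cells (limma, 9 at an unadjusted p under 0.05, lowest adjusted p = 0.109), where 0.104% of the genes tested were called. In B cells these genes lie under the pseudocount, at no more than 0.221, so differences there are squeezed towards 0 and the count of 0 (limma, 0 at an unadjusted p under 0.05, where 0.144% of the genes were called) says nothing about the sexes. Without a fit, females and males did not overlap in B cells for 79 of the 109 Trav genes, against 42.1% of all genes of the table, at values with wide bounds. In T cells 39 Trav genes were higher in females and 39 in males, with differences between -0.56 and 0.41 on the scale of log2(adjusted TPM + 1) and a median SE of 0.13, so that small differences could not have been called. Whether the sex effect differs between T and B cells could not be read for these genes, for the same reason.

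The segments nearest to the threshold were identical copies. Trav14d-2 was at 1.25, 1.32 and 1.22 in female T cells 4, 5 and 6 and at 0.775, 0.672 and 0.667 in male T cells, the gene with the lowest adjusted p. Its identical copy Trav14n-2 was at 3.96, 3.56 and 2.76 in females and at 5.37, 6.74 and 4.53 in males, the opposite order. Their sum was 5.20, 4.87 and 3.98 in females and 6.15, 7.41 and 5.19 in males, with a difference of -0.35 ± 0.12 (SE) between females and males (limma with identical copies summed, adjusted p = 1.00). With copies summed, the lowest adjusted p over all rows was 0.783 (limma). Trav14n-2 also had the largest difference in usage, 0.571 percentage points lower in females.

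The share of the 54 nearest Trav genes was 66.7% ± 2.05 (SD, n = 3) in female and 67.9% ± 1.30 in male T cells, a difference of -1.11 points (exact two-sided permutation test, p = 0.400, adjusted p = 0.467). That of the 29 nearest Traj genes was 39.6% ± 0.843 and 40.8% ± 1.12 (exact permutation test, p = 0.300, adjusted p = 0.452). With 3 libraries against 3 this exact permutation test cannot go below p = 0.10. The Trav share also carries the limit of identical copies that lie on opposite sides of the divide. Within the 3 same-numbered pairs the difference of females from males was -1.06, -1.57 and -0.990 points for Traj and -1.49, -1.63 and -0.198 points for Trav, so females were lower in 3 of 3 pairs (exact paired permutation test with the number as a block, p = 0.25 for both, the smallest that 3 pairs allow).

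Genes that rearrange the locus were compared as a group. Of 14 genes of V(D)J recombination and end joining, 12 were tested, and 4 were higher in T cells, 2 were higher in B cells and 6 were not called (limma), where 41.6% and 31.4% of all genes tested were called in these directions. Their median difference of B from T cells was -0.09 on the scale of log2(adjusted TPM + 1), the same as over all genes tested. Dntt, the enzyme that adds bases at the V to J junction, was at 6.50 to 7.96 in T cells and did not exceed 0.0112 in B cells. Xrcc4, Xrcc5 and Atm, which act in end joining and the damage response, were higher in T cells by 0.99, 0.26 and 0.19. Polm, a polymerase of end joining, was higher in B cells by 1.45 and Dclre1c, which encodes the hairpin opener Artemis, by 0.77. Rag1, part of the recombinase, was at 0.821 to 1.70 in B cells and did not exceed 0.0126 in T cells, and Rag2 was at most 0.0457 in any library.

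Of 9 factors that bind the enhancer and locus of Tra, 5 were higher in T cells, 2 were higher in B cells and 2 were not called (limma), against the same 41.6% and 31.4% of all genes tested. Tcf7 was at 342 to 388 in T cells and at 0.376 to 0.764 in B cells, and Gata3 at 11.5 to 14.6 and at most 0.00625. Lef1, Ets1 and Myb were the others that were higher in T cells, by 5.62, 0.95 and 0.63 on the scale of log2(adjusted TPM + 1). Tcf3 and Runx1 were higher in B cells, by 1.40 and 0.21. The median of the list was -0.63 for B minus T cells, against -0.09 over all genes tested.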

How the data were processed

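Expression was measured by ribosome-depleted, strand-specific RNA sequencing. The processing notes of the submitters name Trim Galore, FastQC, STAR and the build mm10. The quantifier, the annotation and the method of adjustment are not given in the sources used here. Some label fields say genomic DNA, and the values were treated as RNA. The deposited table gives a signal named adjusted TPM, with a lower and an upper bound of unstated level. Groups came from the labels. Per the labels, same-numbered T cell libraries of the sexes share only a number. The deviations of each same-numbered pair correlated across genes (r = 0.72, 0.55 and 0.52). The numbers were therefore taken to pair them in the alternatives with a replicate block. The main fits and tests of the sexes did not use the pairing. The labels also carry a further digit of unstated meaning, which differs between females and males within each cell type. Whatever it stands for cannot be told apart from sex here.

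Genes at 1 or more in at least 3 libraries were tested with limma 3.58.1 (R 4.3.3) on log2(adjusted TPM + 1) over all 12 libraries, with 1 coefficient per group, a variance trend and Benjamini-Hochberg adjustment over all genes tested. The scripts were tested on simulated data. Sums and shares were compared by exact permutation tests (scipy 1.17.1, Python 3.11.15), 7 in all. Of the 168 members, 103 Trav and 59 Traj genes matched GENCODE M21 by identifier and 6 Trav genes by a unique symbol. Named genes are the 10 highest Trav and Traj in T cells, the 3 highest in B cells, the 5 most variable Trav in T cells, the ends of each cluster and the segments of invariant receptors. The members and lists were chosen with earlier results of these data known. Precision was read from the deposited bounds, since depth is unknown. Alternatives were another pseudocount, no filter, 2 other scalings, the bounds, families summed, a replicate block and leaving out each library.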

Additional observations from a re-analysis of the deposited data

How the results depend on the processing

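Without the filter, 144 of the 168 segments were called between B and T cells, 51 between the sexes in T cells and 45 between the sexes in B cells, against 78, 0 and 0, where 59.8%, 25.8% and 26.7% of all genes were called. Most segments this adds are near the floor. With Trav genes summed by family, 18 rows were called higher in T cells, out of 18 tested, where 5148 of all 12460 rows were. No family was above 0.457 in a B cell library, so these rows had to be higher in T cells. The number called stayed at 78, 0 and 0 with a pseudocount of 0.1, median-ratio scaling and each library left out, and was 81, 0 and 0 when each library was rescaled to 1000000, which moved the median of all genes by 0.35 for B minus T cells and by 0.25 for females minus males in T cells. The replicate block left 78, 0 and 0 calls and changed no call of a segment or share. In B cells the same-numbered libraries did not deviate together (r = -0.17, -0.04 and -0.34).

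For the summed Traj level, T minus B was -0.27 from the lower bounds, -0.41 after rescaling to 1000000 and -0.14 with median-ratio scaling, each past the threshold, and -0.0503 to 0.00726 with a library left out, with the sign turned without female B cell 1. The share of the Traj genes nearest to Trac differed by 5.42 points from the lower bounds and by 2.93 points with the nearest 19. Between the sexes in T cells the Traj share turned to 0.906 points without pseudogenes, and the Trav share to 0.739 points with the nearest 36. The cause was not tested. The bounds limit all values below 0.1.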
